A study of Mus musculus with 40 samples.

Results

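Baseline gene expression of the pancreas was compared with that of 4 other organs in control mice. Of the 40 RNA-seq libraries of the series, 15 came from these mice, which the labels call Tg: 3 libraries of pancreas and 12 of kidney, ovary, heart and small intestine (3 each). They were chosen by genotype and tissue label alone. The mice were C57BL/6j, 60 days old and of genotype Mdm2+/- Cag-CreERTg. They keep 1 allele of Mdm2, the ubiquitin ligase that restrains p53, and carry a Cre recombinase fused to an oestrogen receptor domain under the CAG promoter, which is active in most cell types. The pancreas and the 4 organs it is set against all share this genotype, so no wild-type tissue is among them. The series title places tissue collection 24 hours after p53 activation in the Mdm2-deleted arm, and the labels do not say whether the Tg mice received the inducing drug. The labels give replicates 1, 2 and 3 of every tissue the same animal numbers, so 3 female mice, here mouse 1, mouse 2 and mouse 3, gave all 5 tissues. The p-values of single genes rest on the spread between libraries of the same tissue, pooled over the 5 tissues, without a term for the mouse. Those of the permutation tests rest on relabelling within mice. Both kinds cover these 3 animals only.

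The pancreas joins an exocrine gland to endocrine islets. Its acinar cells make digestive enzymes, many of them as inactive zymogens, store them in granules and release them when cholecystokinin or acetylcholine raises cell calcium. Duct cells add bicarbonate-rich fluid, and islet cells secrete insulin, glucagon and other hormones into the blood. Acinar identity depends on PTF1, a complex in which Ptf1a and a partner of the E-protein family bind an E-box (CANNTG) and Rbpjl binds a TGGGAA element next to it.

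Promoters of 6 genes are shown because their genes carry the main result, the excess of acinar transcripts in the pancreas, and because they differ in the PTF1 letters. They are the 150 bases before the RefSeq transcript start in build GRCm38.p6, written 5′ to 3′ on the strand of the gene, with each CANNTG and each TGGGAA (on either strand) in capitals. Cel (bile salt-activated lipase, chr2:28563404-28563553, minus strand), Cela2a (a pancreatic elastase, chr4:141826006-141826155, minus strand), Cpa1 (carboxypeptidase A1, chr6:30639068-30639217, plus strand), Gp2 (a zymogen granule membrane protein, chr7:119459273-119459422, minus strand) and Rbpjl (the PTF1 subunit, chr2:164403044-164403193, plus strand) hold both motifs. Ctrb1 (chymotrypsinogen B, chr8:111691011-111691160, minus strand) holds neither in these bases. Where both motifs occur they need not lie next to each other, and in Cela2a and Gp2 they lie well apart.
Cel: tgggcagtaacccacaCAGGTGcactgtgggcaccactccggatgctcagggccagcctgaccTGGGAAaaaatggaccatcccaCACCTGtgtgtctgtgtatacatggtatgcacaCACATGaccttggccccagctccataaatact
Cela2a: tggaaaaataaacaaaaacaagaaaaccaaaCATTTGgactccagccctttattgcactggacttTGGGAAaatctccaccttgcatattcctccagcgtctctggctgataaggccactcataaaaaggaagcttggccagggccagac
Cpa1: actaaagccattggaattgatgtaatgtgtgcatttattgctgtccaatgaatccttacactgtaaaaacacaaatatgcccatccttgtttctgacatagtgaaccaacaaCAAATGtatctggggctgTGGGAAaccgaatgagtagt
Gp2: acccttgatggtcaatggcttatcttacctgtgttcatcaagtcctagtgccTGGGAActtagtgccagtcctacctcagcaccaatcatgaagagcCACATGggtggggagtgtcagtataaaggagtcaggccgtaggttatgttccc
Rbpjl: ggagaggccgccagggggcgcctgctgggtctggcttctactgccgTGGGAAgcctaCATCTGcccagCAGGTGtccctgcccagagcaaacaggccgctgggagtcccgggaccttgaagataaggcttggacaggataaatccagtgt
Ctrb1: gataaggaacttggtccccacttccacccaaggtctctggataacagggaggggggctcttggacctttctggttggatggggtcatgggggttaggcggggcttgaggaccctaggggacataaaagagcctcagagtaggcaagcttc

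The Tg libraries held 9.87 to 17.4 M (mega) reads, and those of the pancreas 11.4, 11.6 and 9.87 M. In the pancreas, 47 genes of digestive enzymes, zymogen granules and secreted accessory proteins took 56.2%, 63.8% and 53.3% of the reads of mice 1, 2 and 3. In the kidney, the heart and the ovaries of mice 2 and 3 they took 0.197% to 0.987%, and in the small intestine 3.34% to 5.67%. One library stood apart in these genes: the ovary of mouse 1 drew 31.6% of its reads from them. For the 39 of them most abundant in the pancreas, its level was 56.7% of the pancreas mean (median, quartiles 51.3% to 60.0%). In the ovaries of mice 2 and 3 it was 1.18% and 0.292%. Its islet hormone genes also took 0.0517% of reads, close to the 0.0484% to 0.0913% of the pancreas. The pancreas of mouse 1 in turn held 0.0278% of reads from ovarian genes, against 0.00067% and 0.00105% in mice 2 and 3. In the ovary of mouse 1 ovarian genes took 0.222% of reads, against 0.514% and 0.303% in the other ovaries. That library enters each comparison below as labelled, and the counts and several of the leading genes are also given without it. Cardiac muscle genes took 1.33% of reads in the small intestine of mouse 1, against 0.00581% and 0.162% in mice 2 and 3. They took 0.339% in the ovary of mouse 3, against 0.0104% and 0.0169% in the other ovaries. Kidney epithelial genes took 0.473% in the small intestine of mouse 1, against 0.0227% and 0.107% in mice 2 and 3. These libraries also enter as labelled.

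**Figure D1:**
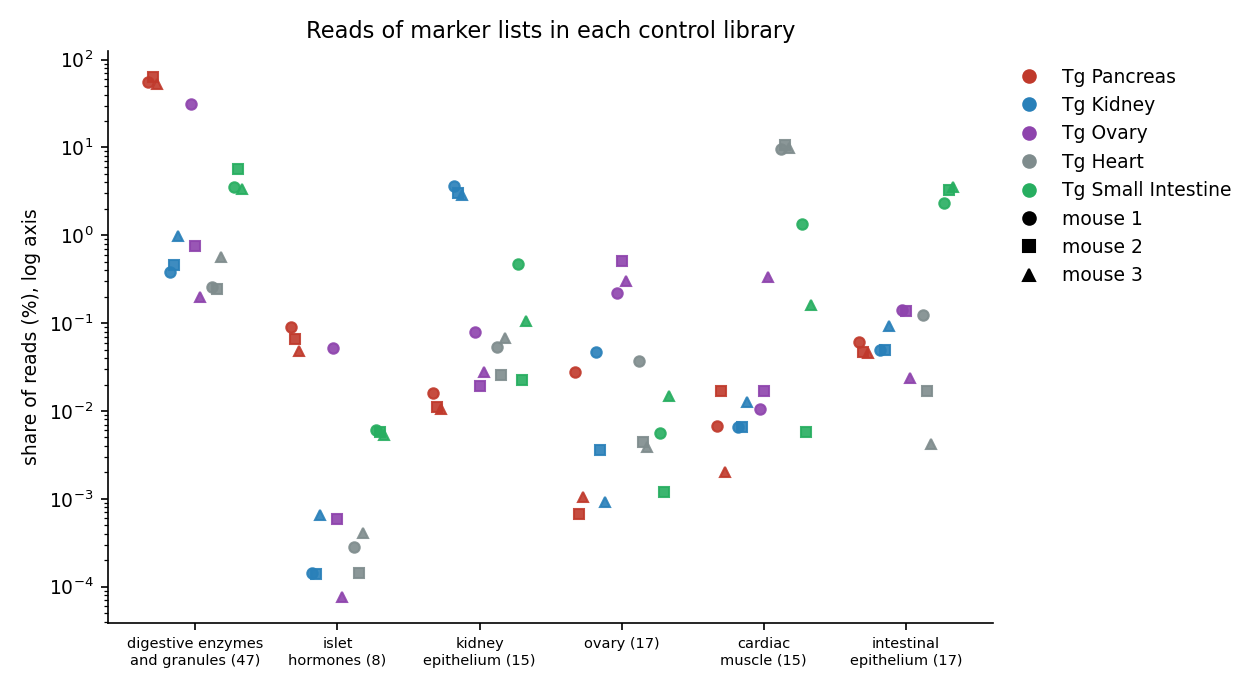
Share of each library's reads (percent, log axis) taken by marker lists of the pancreas and of other organs, 1 point for each of the 15 Tg libraries, coloured by tissue and shaped by mouse. The ovary of mouse 1 lies at 31.6% for the digestive enzyme and granule genes, next to the 3 pancreas libraries at 53.3% to 63.8%.

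A few messages dominated the pancreas. Its 10 most abundant genes took 39.9%, 44.9% and 38.4% of reads (41.0% ± 3.41, SD, n = 3), and the 10 most abundant genes of the other libraries took 3.22% to 22.1% (10.7% ± 6.39, SD, n = 12). Every pancreas library lay above every other library; the difference was 30.4 percentage points (two-sided exact permutation within mice, p = 0.008, the smallest that relabelling within 3 mice can give). Without the ovary of mouse 1 it was 31.4 points (exact permutation p = 0.01, again the smallest possible). In all 3 pancreas libraries all 10 of these genes were on the digestive enzyme and granule lists. This was also the case in the ovary of mouse 1, whereas the kidney, heart and other ovary libraries had 0 of 10. In bulk tissue, more cells of a type and more RNA per cell cannot be told apart, here or in any comparison below, and neither can fewer cells and less RNA. Fewer genes were seen in the pancreas: at an equal depth of 9.87 M reads 16117, 15291 and 15406 genes had a read, against 16004 to 16974 in the other libraries. The means differed by -864 genes (exact permutation p = 0.008), although the pancreas of mouse 1 overlapped the other tissues. Equal depth here means equal total reads, and the digestive genes took 53.3% to 63.8% of those in the pancreas. Fewer reads were thus left there for all other genes, and their number was not equalised.

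Differences per gene were tested with limma on the deposited values, which are on a log2 scale after a variance-stabilising transformation, so that a difference of 1 means a doubling for well-expressed genes and less at low counts. Of 17294 genes tested, 1555 (8.99%) were higher in the pancreas than the mean of the 4 other tissues and 3248 (18.8%) were lower, at an adjusted p below 0.05 and a difference of at least 1. The median difference of all genes was -0.26 on the log2 scale, so values below are best read against that shift. When libraries were scaled by their total reads instead, the median was -0.87 and 513 genes were higher against 7397 lower. The pancreas was called lower than the ovary at 3908 genes (22.6%), the small intestine at 3522 (20.4%), the heart at 3390 (19.6%) and the kidney at 3197 (18.5%). It was called higher than the kidney at 2372 (13.7%), the heart at 2357 (13.6%), the small intestine at 1760 (10.2%) and the ovary at 1490 (8.62%). These splits moved with the scaling. With libraries scaled by their reads outside the digestive genes, more genes were higher than lower against the heart (3608 and 1887), the kidney (2652 and 2286) and the small intestine (2401 and 2278), and fewer against the ovary (1153 and 3603).

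A stricter class asked for a difference of at least 2 from each single tissue. It held 228 pancreas-enriched genes (1.32% of those tested) and 74 pancreas-depleted genes (0.428%). Without the ovary of mouse 1, 1627 genes (9.41%) were higher than the mean of the others and 3366 (19.5%) lower. There were then 259 enriched genes (1.5%), all 228 among them, and 62 depleted genes (0.359%), 56 of them shared. The depleted class moved with single libraries: it held 171 genes without the pancreas of mouse 1 and 38 without that of mouse 3. It held 65 without the small intestine of mouse 1 and 78 without the ovary of mouse 3. Without the ovary of mouse 1, 1847 genes were higher and 4161 lower against the 2 remaining ovaries. In 222 of the 228 enriched genes all 3 pancreas libraries lay above all 12 others (227 without that ovary), which was so for 8.71% of all genes tested. In 59 of the 74 depleted genes they lay below all others, against 7.41% of all genes. Both classes were chosen on these same values, so little overlap between libraries follows in large part from the rule. With all 3 ovaries included, the nearest other tissue of the enriched genes was the ovary for 99, the small intestine for 99, the kidney for 19 and the heart for 11. Just inside the threshold of 2 were Foxa3, a liver and gut transcription factor (2.01 above its nearest tissue), and Il1b (2.00), and just outside it Clec4e and Adora1 (1.99 each).

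**Figure D2:**
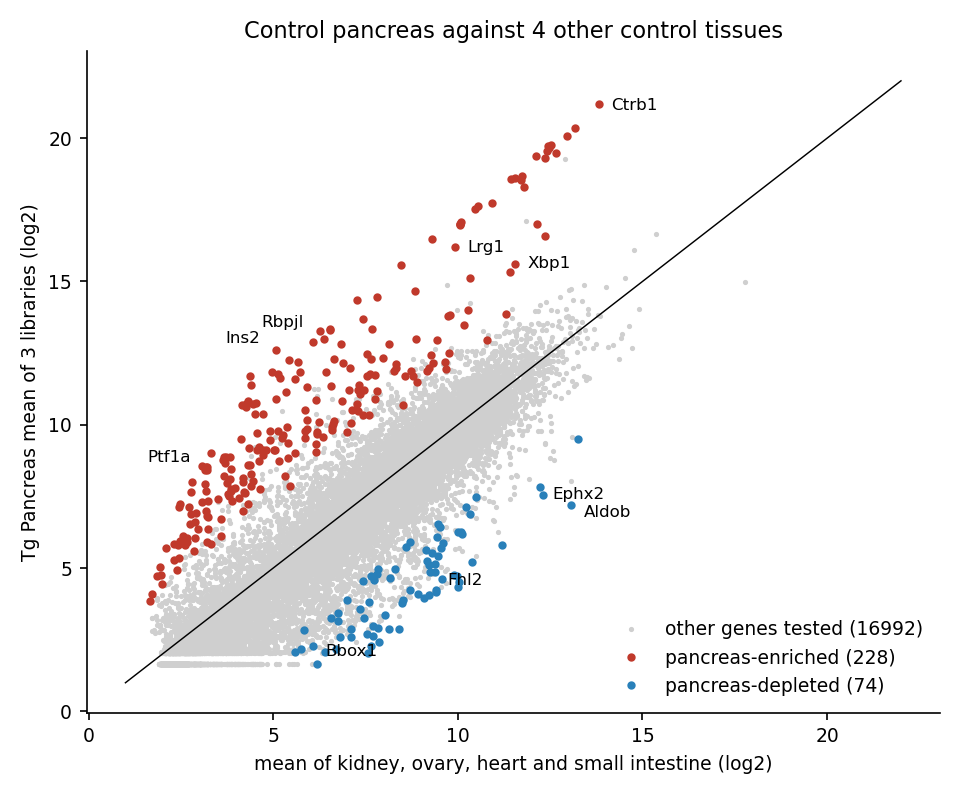
Mean log2 value of each of 17294 genes in the 3 Tg pancreas libraries (vertical) against the mean of the 4 other Tg tissues (horizontal), with the 228 pancreas-enriched and 74 pancreas-depleted genes coloured. The enriched genes include the most abundant of all, such as Ctrb1, and the depleted genes lie lower on the pancreas axis.

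Serine protease zymogens took the largest share of reads among the 4 digestive enzyme and granule lists. Of the 16 on the list 15 were higher and all 15 were enriched, with a median difference of 6.88 (7.45 without the ovary of mouse 1, 5.93 under total-read scaling). Cfi, a complement protease, was the exception (-0.16 ± 0.34, SE, adjusted p = 0.783). These genes took 28.8%, 33.5% and 29.4% of pancreas reads. Ctrb1 (ENSMUSG00000031957.6, chromosome 8, 111686519 to 111691010, minus strand) alone took 8.83%, 10.2% and 9.71%.

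The log2 values of Ctrb1 were 20.98, 21.54 and 21.09 in the pancreas of mice 1, 2 and 3. They were 11.76, 12.31 and 13.87 in the kidney, 19.33, 13.08 and 11.28 in the ovary, 11.82, 12.06 and 13.56 in the heart and 15.43, 15.99 and 15.27 in the small intestine. The pancreas did not overlap any other tissue, the ovary of mouse 1 came next, and the small intestine was above the kidney, the heart and the other ovaries. The difference from the mean of the 4 tissues was 7.39 ± 1.16 (SE, adjusted p = 1.7e-04) and 7.99 without that ovary. In normalised reads, that is, reads divided by the size factor of each library, the pancreas mean was 34.1 times the mean of the others and 141 times without that ovary.

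Cela1, Cela2a and Cela3b encode elastases, which cut after small residues, and Prss2 encodes the main anionic trypsinogen. Cela1 differed by 7.17, Cela2a by 7.26, Cela3b by 7.25 and Prss2 by 7.18 ± 1.16 (SE, adjusted p = 2.0e-04). Without the ovary of mouse 1, Cela1 differed by 7.76 and Prss2 by 7.78. All 4 tested genes of the Cela family were enriched. Prss2 had 340840, 427112 and 311234 reads in the pancreas and its neighbour Prss1 only 21, 112 and 21. Trypsinogen genes are near-identical copies in 1 cluster, so the split of reads among them is uncertain. Levels of different genes within a tissue were compared in reads per kilobase of exon, scaled by total reads (RPKM). In the pancreas Ctrb1 stood at 109056 ± 7874 (SD, n = 3), Prss2 at 40122, Cela1 at 22983 and Cela2a at 19768.

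The list of carboxypeptidases, which trim peptides from the carboxyl end, had 3 of 3 genes enriched. Cpa1 differed by 7.14 ± 1.16 (SE, adjusted p = 2.1e-04), and Cpb1 by 6.96, and the list took 6.63%, 6.74% and 5.10% of pancreas reads. Of the enzymes of lipid, starch and nucleic acid digestion all 10 tested genes were enriched, with a median of 6.87 (5.92 under total-read scaling). Among them were Pnliprp1, a lipase-related protein (7.22), Cel (7.13), Clps, the cofactor of pancreatic lipase (7.01), and the ribonuclease Rnase1 (6.96). Each of these groups was higher under every scaling tried. The amylase genes had unequal counts: Amy1 had 1288, 1301 and 894 reads in the pancreas, while Amy2a5 had 30, 88 and 4 and Amy2a1 had 19, 66 and 7. Amylase genes are also copies of each other, and how reads that fit several of them were counted is not given in the sources used here.

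Of 18 granule and accessory genes 15 were higher and 11 were enriched (median 6.44). Sycn, a zymogen granule protein, differed by 7.16, Cuzd1 by 7.13, Gp2 by 7.10 ± 1.17 (SE, adjusted p = 2.4e-04) and the trefoil peptide Tff2 by 7.09. Reg3b (5.27) and Reg3g (5.16), antimicrobial lectins, were called but not enriched, standing 0.86 and 0.76 above the small intestine. Dmbt1 (6.37), a mucosal scavenger protein, stood 3.03 above the small intestine and missed the enriched class by its adjusted p there (0.0876). It passed as enriched without the ovary of mouse 1. The membrane-fusion genes Vamp8 (0.60), Stx3 (-0.09) and Rab27b (-0.06) were not called, whereas Rab3d, the Rab protein of zymogen granules, was enriched (2.73).

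Several of the 15 enriched genes farthest from their nearest tissue were on none of these lists. Tdh (chromosome 14, 63492347 to 63509092, minus strand), threonine dehydrogenase, had log2 values of 10.85, 11.58 and 11.77 in the pancreas. In the ovary of mouse 1 it stood at 9.25, and in the remaining 11 libraries it ran from 1.65 to 6.26. The pancreas lay above all of them, with a difference of 7.0 ± 0.98 (SE, adjusted p = 6.6e-05) and a ratio of normalised reads of 41.1 (154 without that ovary). Cabp2, a calcium-binding protein, differed by 6.87 ± 1.00.

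Klk1b5, Klk1b11 and Klk1b3, members of the glandular kallikrein family of serine proteases, differed by 6.51, 6.34 and 6.22. Lrg1 (chromosome 17, 56119678 to 56122001, minus strand), a secreted leucine-rich glycoprotein, stood at 15.83, 16.33 and 16.41 in the pancreas and at 13.99 in the ovary of mouse 1. Its remaining values were 8.35 to 11.06, so the groups did not overlap, and the difference was 6.26 ± 0.83 (SE, adjusted p = 4.4e-05). Lrg1 reached 2130 RPKM in the pancreas.

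The transcription factors of the acinar cell were higher as well. Of 11 tested 9 were called, all higher, and 6 were enriched, with a median of 4.08 (4.32 without the ovary of mouse 1, 2.52 under total-read scaling). Rbpjl (ENSMUSG00000017007.9, chromosome 2, 164403141 to 164415448, plus strand) had 3836, 5694 and 3643 reads in the pancreas and 2012 in the ovary of mouse 1. The small intestine held 258, 357 and 199 reads of it and the remaining libraries 10 to 81. Pancreas values were thus above all others, by 7.01 ± 1.08 on the log2 scale (SE, adjusted p = 1.4e-04).

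Ptf1a (ENSMUSG00000026735.2, chromosome 2, 19445663 to 19447501, plus strand) stood at log2 values of 8.55, 9.23 and 7.93 in the pancreas, 6.72 in the ovary of mouse 1 and 1.65 to 4.45 elsewhere. Its difference was 5.50 ± 0.74 (SE, adjusted p = 4.9e-05), with no overlap, and 5.87 without that ovary. Bhlha15, also called Mist1, which shapes the secretory apparatus, had values of 11.06, 11.87 and 11.05 and differed by 5.40 ± 0.65. Onecut1 (4.76 ± 0.59) and Foxa2 (4.58 ± 0.42), which act early in pancreatic development, were enriched too. Rbpjl stood at 69.5 ± 14 RPKM in the pancreas (SD, n = 3), above Bhlha15 at 29.3 and Ptf1a at 10.1 ± 3.1.

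Xbp1 (chromosome 11, 5520659 to 5525893, plus strand), the factor that expands the endoplasmic reticulum of secretory cells, was the most abundant of the list per length, at 612 RPKM. Its log2 values were 15.37, 15.86 and 15.61 in the pancreas, 13.92 in the ovary of mouse 1 and 10.40 to 12.51 elsewhere, and it differed by 4.08 ± 0.46 (adjusted p = 1.2e-05). The gene count does not separate its spliced and unspliced forms.

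Nr5a2, Pdx1 and Gata4 were called but not enriched, since other organs held them too. Their RPKM values are scaled by total reads, most of which came from digestive genes in the pancreas. The calls use another scaling, so the order of organs in RPKM can differ from theirs. Nr5a2, a nuclear receptor of acinar and steroid-producing cells, stood at 16.1 RPKM in the pancreas and 28.5 in the ovary. Pdx1, a factor of islets and duodenum, stood at 5.69 and at 10.1 in the small intestine, and Gata4 at 15.9 and at 31.5 there. Gata6 was not called (-0.02 ± 0.20, adjusted p = 0.944) and changed sign under other settings.

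**Figure D3:**
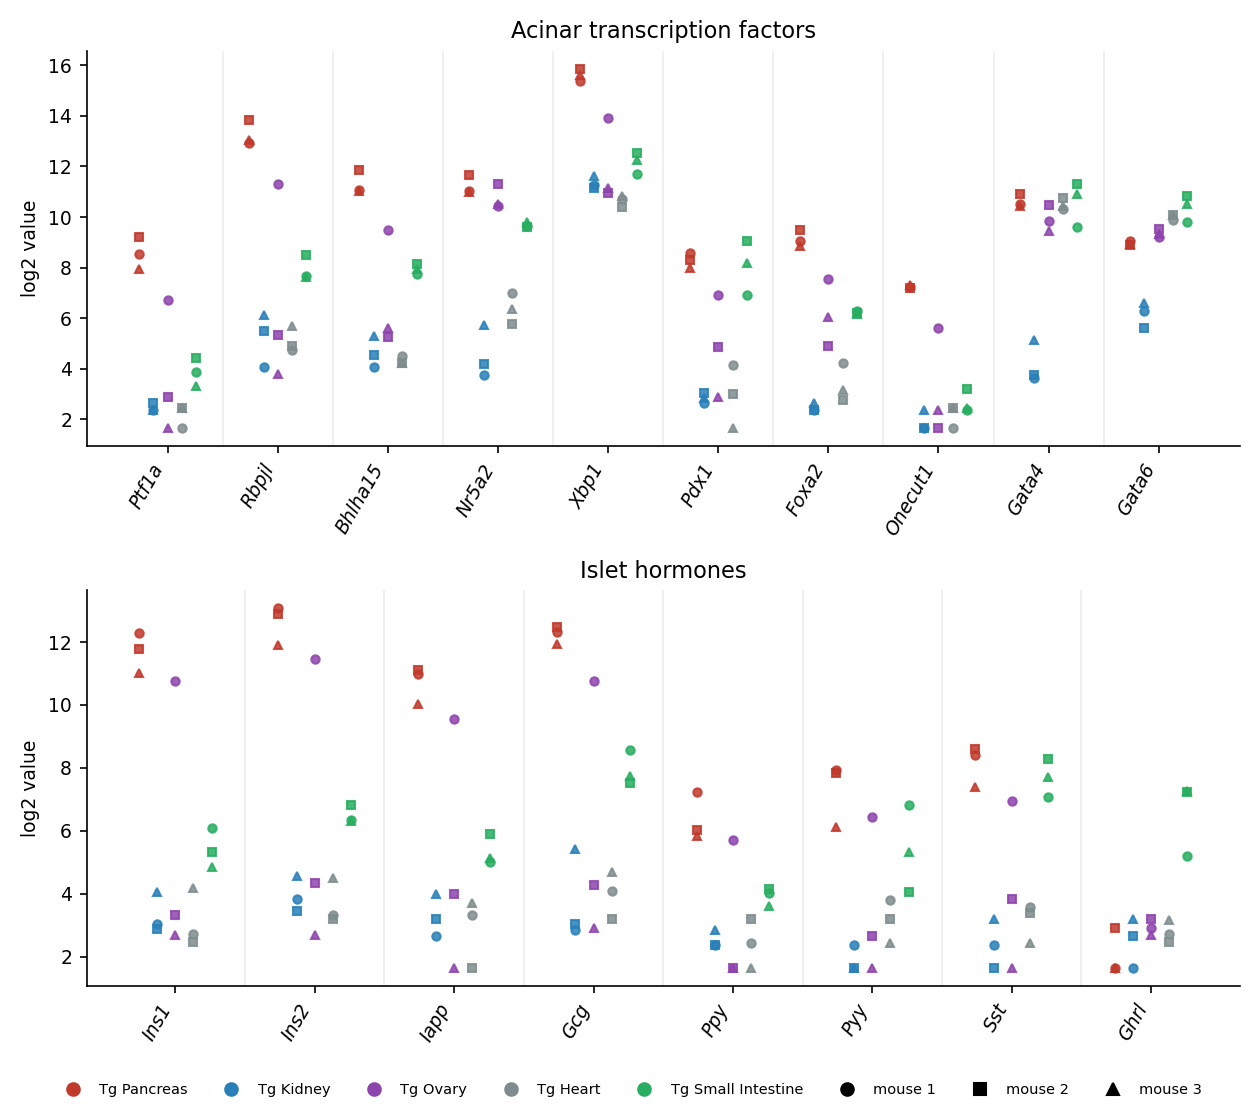
Log2 values of acinar transcription factors and islet hormones in the 15 Tg libraries, coloured by tissue and shaped by mouse. For Ptf1a, Rbpjl and Ins2 the pancreas points lie on top and the ovary of mouse 1 lies just under them, while for Gata6 the pancreas points lie between those of the kidney and the small intestine.

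Around these sequences, promoters from RefSeq could be matched for 165 of the 228 enriched genes. In a window of 250 bases before the start and 50 from it on, with matches allowed to overlap, CANNTG, which reads the same on both strands, occurred in 77.0% of them and in 65.5% of the 12057 promoters of all tested genes that were matched. TGGGAA on either strand occurred in 36.4% against 23.9%, and both motifs in 32.7% against 16.2%. Of the 28 matched promoters of enriched digestive and granule genes, 24 held CANNTG, 16 held TGGGAA and 14 held both. Among 46 matched promoters of depleted genes the shares were 73.9%, 23.9% and 19.6%. These are matches of letters, with both motifs counted at any distance from each other, and are described without a test.

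Signalling genes of the acinar cell were mixed. Of 20 tested in stimulus-secretion coupling 8 were higher and 2 lower (median 0.22). Under total-read scaling 6 were higher and 7 lower (median -0.67), where 513 of all 17294 genes were higher and 7397 lower (median -0.87). Cckar, the cholecystokinin receptor of the rodent acinar cell, had log2 values of 13.34, 13.72 and 12.96 in the pancreas. The next library was the ovary of mouse 1 at 11.79, followed by the kidney at 9.06 to 9.54. It was enriched, by 5.68 ± 1.02 (SE, adjusted p = 4.5e-04), together with the intracellular water channel gene Aqp12 (6.25 ± 0.79) and the secretin receptor gene Sctr (3.82 ± 0.46). The muscarinic receptor genes Chrm1 (3.75) and Chrm3 (2.30) were higher too. The bicarbonate cotransporter gene Slc4a4 (-3.82 ± 0.23), of which the kidney held most, and the calcium-release channel gene Itpr1 (-2.06) were lower.

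Amino acid supply and creatine synthesis had 13 of 20 genes higher and 2 lower (median 1.47; 7 and 3, median 0.51, under total-read scaling). The glutamine transporter gene Slc38a5 differed by 4.51 ± 0.33, Phgdh, the first enzyme of serine synthesis, by 3.89 ± 0.38, and Gnmt, which methylates glycine, by 3.80. Slc7a5, the light chain of the leucine transporter, was 11.51, 11.60 and 13.21 in the pancreas of mice 1, 2 and 3 and 6.32 to 10.54 elsewhere. Mouse 3 was the highest, and the difference of 3.80 ± 0.30 (adjusted p = 1.0e-06) came without overlap. Gamt (3.48) and Gatm (1.70), the enzymes of creatine synthesis, were higher, whereas the creatine transporter gene Slc6a8 (-2.23) was lower.

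In the 4 lists of the secretory route, 7 to 14 members each were called higher, out of 25 to 32. Of 29 endoplasmic reticulum folding genes 13 were higher and 0 lower (median 0.83), but 6 higher and 2 lower under total-read scaling (median -0.11). The members with the largest differences were enriched: Erp27 (6.80 ± 1.06), Pdia2 (5.67 ± 0.82), the cargo receptor gene Tmed6 (5.65) and Ero1lb (3.11), an oxidase that reloads disulfide isomerases. Hspa5, the general chaperone BiP, differed by 0.66 ± 0.11 (adjusted p = 3.3e-04), under the size asked for a call, and by -0.29 under total-read scaling. In RPKM, which is also scaled by total reads, Hspa5 stood at 128 in the pancreas and 191 in the kidney.

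Of 32 genes of translocation into the endoplasmic reticulum 14 were higher (median 0.82; 3 higher and 1 lower, median -0.12, under total-read scaling). Rrbp1, a ribosome-binding membrane protein, differed by 2.57, the signal peptidase gene Sec11c by 2.38 and Srpr, the receptor of the signal recognition particle, by 2.16. The unfolded protein response list had 13 of 25 higher (median 1.20; 5 higher and 2 lower, median 0.26, under total-read scaling). It was led by Xbp1, the membrane-bound factor gene Creb3l1, Eif2ak3, which encodes the sensor kinase PERK (2.55), and Edem2 (2.51). In transport from there to the Golgi 7 of 32 were higher and 1 lower (median 0.52; 1 and 2, median -0.43, under total-read scaling), with Tmed3 at 2.18 and Kdelr3 at 1.90.

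Cytosolic ribosomal protein genes were higher in 63 of 83 cases and lower in 1 (median 1.19), yet under total-read scaling 0 were higher and 1 lower (median 0.25, with all genes at -0.87). Rpl32 was 13.37, 13.66 and 13.49 in the pancreas and 10.89 to 12.46 elsewhere, without overlap (1.84 ± 0.15, adjusted p = 1.3e-06; 0.89 under total-read scaling). The 1 lower gene was Rpl3l, the striated muscle paralog (-3.38), whose call was lost without the pancreas of mouse 3 (adjusted p = 0.0517). Of 32 translation factors 7 were higher and 1 lower, again 0 and 2 under total-read scaling. The highest difference was that of Eif5b (1.76), and Eef1a2, the muscle and neuronal elongation factor, was lower (-3.06), but not without the pancreas of mouse 1 or of mouse 3 (adjusted p = 0.0681 and 0.0768).

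**Figure D4:**
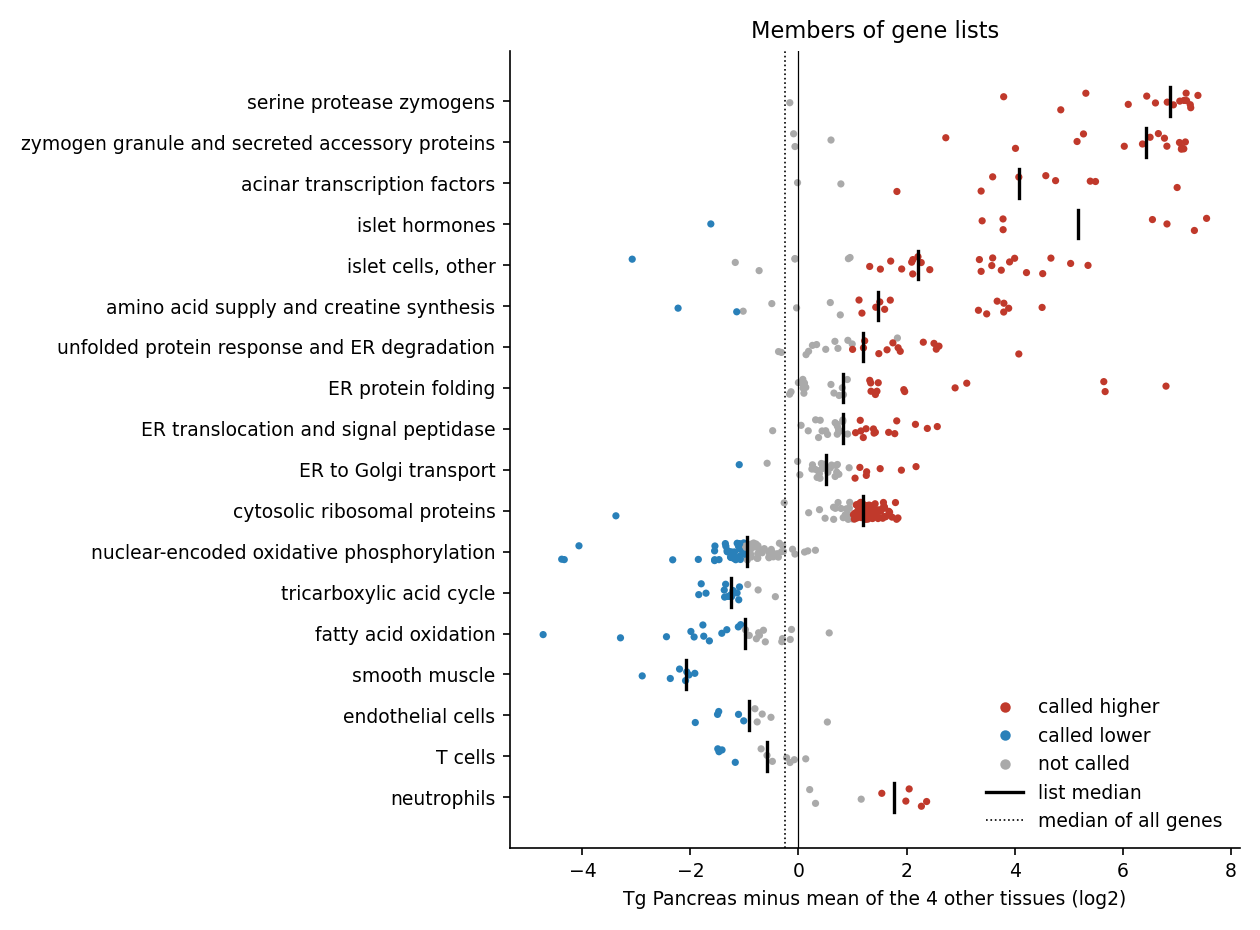
Difference of each tested member of 18 gene lists between the pancreas and the mean of the 4 other Tg tissues (log2), with members called higher in red, called lower in blue and not called in grey, list medians as bars and the median of all genes (-0.26) as a dotted line. The digestive lists lie near 7, the ribosomal list near 1 and the energy metabolism lists below the dotted line.

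Islet transcripts were present in every pancreas library at a small share of reads, 0.0913%, 0.0653% and 0.0484%. Of 8 hormone genes 7 were higher and 5 were enriched (median 5.17; 5.63 without the ovary of mouse 1, 3.47 under total-read scaling). Ins2 (ENSMUSG00000000215.11, chromosome 7, 142678656 to 142743381, minus strand), 1 of both insulin genes of the mouse, had 4192, 2949 and 1638 reads in the pancreas and 2240 in the ovary of mouse 1. It had 77 to 106 reads in the small intestine and 2 to 23 in the remaining libraries. On the log2 scale the pancreas values of 13.07, 12.89 and 11.90 did not overlap the others, and the difference was 7.55 ± 1.24 (SE, adjusted p = 2.3e-04). The ratio of normalised reads was 25.5, and 238 without that ovary.

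In RPKM, Ins2 stood at 199.9 ± 77.0 (SD, n = 3), Ins1 at 131 ± 60, Gcg, the glucagon gene, at 129 ± 16, and Iapp, which encodes amylin, at 69.8 ± 22. Ins1 differed by 7.33 ± 1.22, Gcg by 6.82 ± 1.17 and Iapp by 6.55 ± 1.12. The levels of Ins1 and Gcg differed by less than their spread over the mice. Ppy, pancreatic polypeptide, was enriched at a low level (3.40 ± 0.69, 71, 23 and 22 reads). Sst (3.79 ± 0.78) and Pyy (3.78 ± 0.82) were called but not enriched. In RPKM, which is scaled by total reads unlike the calls, Sst stood at 15.7 in the pancreas and 21 in the small intestine. The small intestine has its own endocrine cells. Ghrl, the ghrelin gene, was lower (-1.62 ± 0.45, adjusted p = 0.00749), with 0, 1 and 0 reads in the pancreas and 40, 145 and 154 in the small intestine. That call was lost under total-read scaling (-0.86), scaling by reads outside the digestive genes (-0.82), voom (adjusted p = 0.31) and without mouse 3 (adjusted p = 0.134).

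Among 29 other islet genes 22 were higher, 1 lower and 6 enriched (median 2.21; 13 higher and 3 lower, median 0.90, under total-read scaling). Pcsk2, a prohormone convertase, differed by 5.36, Ptprn2, a dense-core granule protein, by 5.04, Slc30a8, the zinc transporter of insulin granules, by 4.67, and Scg2, a secretogranin, by 4.52. Chga (4.22 ± 1.13) was called but also held by the small intestine. Slc2a2, the glucose transporter of mouse beta cells, hepatocytes, kidney and gut, was lower (-3.08 ± 0.52).

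Duct markers pointed both ways: 8 of 16 were higher, of which 5 were enriched, and 4 were lower (median 0.89; 0.05 under total-read scaling), 2 without the pancreas of mouse 2 or that of mouse 3. Muc1, a membrane mucin, was 12.36, 12.68 and 12.34 in the pancreas and 5.18 to 11.06 elsewhere, without overlap (4.91 ± 0.46, adjusted p = 3.0e-06). Clu (4.23), the keratin gene Krt18 (4.05), Sox9 (3.41) and Onecut1 were enriched, and Krt8 was higher (2.26). Krt8 and Krt18 are also made by acinar cells, and Onecut1 is on the acinar factor list as well. The genes of ductal ion transport were lower: Slc4a4, Cftr, the chloride channel of cystic fibrosis (-1.89), and Car2. Car2, a carbonic anhydrase, stood at 7.61, 5.48 and 5.72 against 8.10 to 12.12 in the others and was depleted (-3.81 ± 0.44, adjusted p = 1.6e-05).

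In the 3 lists of energy metabolism, genes were called lower and none higher. Of 83 nuclear-encoded oxidative phosphorylation genes 36 were lower and 0 higher (median -0.95), of 25 fatty acid oxidation genes 12 and 0 (-0.98), and of 18 genes of the tricarboxylic acid cycle 15 and 0 (-1.24). Under total-read scaling 78, 24 and 18 were lower. With libraries scaled by their reads outside the digestive genes the numbers were 17, 10 and 9, so the direction stayed while the count moved. Oxidative phosphorylation genes took 0.350% to 0.400% of reads in the pancreas, 0.573% to 0.822% in the ovary and 3.03% to 3.47% in the heart. The 13 mitochondrially encoded genes took 0.188% to 0.217%, 0.510% to 1.04% and 6.58% to 8.16%. For both, the kidney and the small intestine lay between the ovary and the heart. These are shares of all reads, most of which came from digestive genes in the pancreas, so the pancreas shares of all other genes are lowered. Whether the pancreas would lie below the ovary among reads outside the digestive genes was not tested. The calls of these lists are against the mean of the other tissues, which includes the heart, the kidney and the small intestine. They do not show a difference from the ovary alone.

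Idh3a, a subunit of isocitrate dehydrogenase, shows the pattern in single libraries. Its log2 values were 9.23, 9.26 and 8.81 in the pancreas, 10.57 to 10.88 in the kidney, 9.18 to 9.57 in the ovary, 12.42 to 12.60 in the heart and 10.94 to 11.04 in the small intestine. The pancreas overlapped the ovary and lay below the 3 other organs, and the difference from the mean was -1.80 ± 0.10 (SE, adjusted p = 1.7e-07). Ogdh (-1.71) and Fh1 (-1.37) of the same cycle followed. The largest differences of the respiratory list were those of the muscle isoforms Cox7a1 (-4.38), Cox6a2 (-4.33) and Cox8b (-4.06), of which the heart held most. Cox8b lost its call without the pancreas of mouse 1 (-3.47, adjusted p = 0.0651). Fabp3, the fatty acid-binding protein of heart muscle (-4.73), and Ppargc1a, the coactivator of mitochondrial biogenesis (-3.29), led the fatty acid list.

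The 74 depleted genes were low in absolute terms in the pancreas. Their pancreas reads had a median of 6.5 per gene and library and reached 528 at most, 48 had at most 30 reads in each of the 3 libraries, and 25 had 0 reads in at least 1. None was on the digestive lists, and 3 were on any list. Just inside the threshold were Pck1 (-2.06), the gluconeogenic enzyme, and Tmem25 (-2.01), and just outside it Prlr and BC035947 (-2.0 each).

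Ephx2 (ENSMUSG00000022040.8, chromosome 14, 66084374 to 66124500, minus strand), soluble epoxide hydrolase, was ranked first. Its reads were 426, 39 and 51 in the pancreas of mice 1, 2 and 3 and 2590 to 8651 elsewhere. On the log2 scale the pancreas of mouse 1 (9.78) stood above those of mice 2 and 3 (6.74 and 6.97), and all 3 lay below the lowest other library at 11.54. The difference was -4.40 ± 0.49 (SE, adjusted p = 1.1e-05).

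Paqr9, a membrane receptor of the progestin and adipoQ receptor family, stood at 5.03, 4.00 and 2.86 against 6.74 to 11.23 and differed by -5.13 ± 0.45 (adjusted p = 2.0e-06). Fhl2 (chromosome 1, 43123074 to 43196984, minus strand), a LIM-domain cofactor of muscle, stood at 5.36, 5.10 and 4.12 against 7.36 to 12.70 and differed by -4.53 ± 0.29 (adjusted p = 2.9e-07). Neither gene overlapped between the pancreas and the other organs. Pla2g5, a secreted phospholipase (-3.76), and Smad9, a transducer of bone morphogenetic protein signals (-3.30), were in the same group.

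Of the 15 depleted genes farthest from their nearest tissue, 4 encode solute carriers and 3 detoxifying enzymes of the Gst and Cyp families. Slc13a1 (chromosome 6, 24088283 to 24168092, minus strand), the sodium sulfate cotransporter, had 18, 8 and 1 reads in the pancreas, 10074 to 19059 in the kidney, 3829 to 5371 in the small intestine, 53 to 276 in the ovary and 64 to 379 in the heart. All other libraries exceeded the pancreas (-5.67 ± 0.59, adjusted p = 6.6e-06). Slc7a9, which carries cystine (-5.55), Slc6a20b, an imino acid carrier of which the pancreas held 1, 0 and 0 reads (-5.53), and Slc23a1, which carries ascorbate (-4.82), were depleted likewise.

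In the whole family, which was chosen for description after its values were seen, 11 of 360 tested Slc genes were depleted and 5 enriched. They were 14.9% of the depleted genes and 2.08% of all genes tested, and 131 were lower and 48 higher than the mean of the other tissues. The glutathione transferase genes Gsta2 (-4.73, 3, 3 and 0 reads) and Gsta4 (-3.84), the cytochrome gene Cyp2a5 (-4.32, 0, 1 and 0 reads) and Dao, D-amino acid oxidase (-5.43, 5, 0 and 0 reads), were further members of the top 15. Fbxo40, a muscle ubiquitin ligase subunit, differed by -4.84. Bbox1, the last enzyme of carnitine synthesis, was the 1 depleted gene with 0 reads in all 3 pancreas libraries, and it was named for that reason after its values were seen. At a floor of 3 reads per library it was at least 16.9-fold lower than the mean of the others, a bound that covers counting error only.

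**Figure D5:**
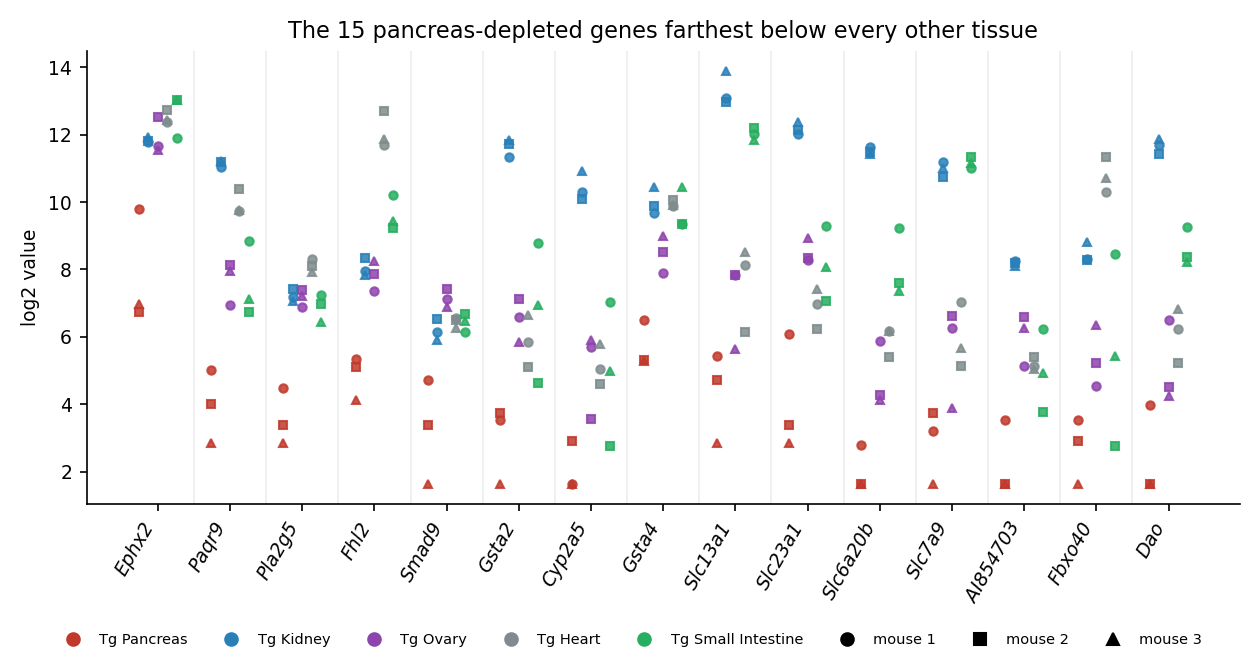
Log2 values of leading pancreas-depleted genes in the 15 Tg libraries, coloured by tissue and shaped by mouse. Apart from Cyp2a5 and Fbxo40 the pancreas points lie below every other library, for Ephx2 at 6.74 to 9.78 against 11.54 and above, and the pancreas of mouse 1 is the highest of the 3 for Ephx2 and Slc13a1.

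Markers of other cell types bear on how these tissues compare. Neutrophil genes were higher in 5 of 8 cases (median 1.76; 3 higher, median 0.76, under total-read scaling). S100a9 differed by 2.37 ± 0.51 (adjusted p = 0.00165), with values of 11.32, 10.56 and 10.77 in the pancreas and 9.76 to 11.39 in the heart, which overlapped. Cxcr2 (2.27), S100a8 (2.05) and Retnlg (1.99) followed. Their reads were 0.0219%, 0.00939% and 0.0157% in the pancreas and 0.0395%, 0.0201% and 0.0127% in the heart.

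Erythroid genes were lower in 6 of 6 cases (median -1.90), smooth muscle genes in 7 of 7 (-2.09) and endothelial genes in 5 of 10 (-0.91; 9 under total-read scaling). Hbb-bs, a beta globin, differed by -2.07, the intermediate filament gene Des by -2.89, Acta2 by -2.09 and Emcn, an endothelial sialomucin, by -1.91. The erythroid calls rested on all 3 pancreas libraries: 0, 0 and 1 of 6 genes passed without the pancreas of mouse 1, 2 or 3, where Hbb-bs had an adjusted p of 0.0911, 0.0867 and 0.074. With voom weights, which test the recovered reads, 0 of 6 erythroid genes were called while their median was -1.89, 6 of 7 smooth muscle genes were, and of the kidney and cardiac marker lists described next 3 and 0 genes were lower. Macrophage genes went both ways, 3 higher and 2 lower of 12, with Cd163 at 1.59 and Cd68 at 1.53 against Mertk at -2.12 and Cx3cr1 at -1.91. Under total-read scaling 0 were higher and 3 lower (median -0.65), where 7397 of all 17294 genes were lower (median -0.87). Of 11 fibroblast and stellate cell genes 2 were higher and 4 lower (median -0.24; 1 and 7, median -1.14, under total-read scaling). Col3a1 was higher (1.95), and Des and Acta2, which are also on the smooth muscle list, were lower. Of the mesothelial genes Lrrn4 (0.62) and Msln (0.36) had the smallest p, and 0 of 6 were called (adjusted p = 0.24 for Msln).

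The defining markers of the compared organs were low in the pancreas, but for several lists not in the pancreas alone. The mean of the 4 tissues includes the organ of each list. Cardiac genes took a mean of 0.00853% of reads in the pancreas and 0.00860% in the kidney. Intestinal genes took 0.0513% in the pancreas, 0.0637% in the kidney and 0.0486% in the heart. For kidney genes the pancreas was lowest, with a mean of 0.0126% against 0.0422% in the ovary and 0.0492% in the heart. Kidney epithelial genes took 0.0105% to 0.0160% of pancreas reads and 2.89% to 3.62% of kidney reads, and 14 of 15 were lower (median -4.15), led by Slc5a12 (-5.19) and Cubn (-5.07), with 9 of 15 lower without the pancreas of mouse 3. The exception was Nphs1, which encodes the slit-diaphragm protein nephrin and is also known from beta cells. It stood at 11.03, 11.09 and 10.93 in the pancreas, 9.10 to 9.31 in the kidney and 9.39 in the ovary of mouse 1, above both (4.82 ± 1.00, adjusted p = 0.0012). Its neighbour on chromosome 7, Kirrel2 (30447534 to 30457690, minus strand), a partner protein of nephrin, was enriched (5.21 ± 0.81, adjusted p = 1.5e-04) and was noticed after its values were seen. Cardiac genes were lower in 8 of 15 cases (median -3.20), in 5 without the pancreas of mouse 1, 4 without that of mouse 3 and 15 without the small intestine of mouse 2. Intestinal genes were lower in 7 of 17 (median -1.97), in 4 and 0 without the pancreas of mouse 2 or 3 and 11 without the ovary of mouse 3 (0 lower with voom), and Anpep was higher (1.53) except without the pancreas of mouse 2.

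Of 17 ovarian genes 1 was lower, Bmp15 (-2.43), which is made in oocytes, 5 were without the ovary of mouse 1, and 10 without the pancreas of mouse 1. The 5 genes that varied most among the pancreas libraries were Hsd3b1 (11.64, 6.14 and 4.12 in mice 1, 2 and 3), Cyp11a1 (11.30, 4.73 and 5.09), Ovgp1 (11.54, 5.40 and 4.98), Ltf (10.51, 3.73 and 5.85) and Clca1 (10.55, 5.57 and 4.12). Mouse 1 was the highest in each. Hsd3b1 and Cyp11a1 make steroid hormones and Ovgp1 is the oviduct glycoprotein, all high in female reproductive tissue, and none of the 5 was called. Without the pancreas of mouse 1 Ovgp1 (-3.54, adjusted p = 0.039) and Ltf (-2.91, adjusted p = 0.0314) were called lower. What part such transcripts have in the pancreas of mouse 1 was not tested.

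The p53 pathway at baseline had 6 of 25 genes higher and 2 lower (median 0.51), where 8.99% of all genes were higher and 18.8% lower (median -0.26). Under total-read scaling 1 was higher and 4 lower (median -0.28). Of all 17294 genes 513 were then higher and 7397 lower (median -0.87). Btg2, an antiproliferative p53 target, was 11.93, 12.49 and 12.64 in the pancreas and 8.90 to 11.12 elsewhere, without overlap (2.36 ± 0.28, adjusted p = 1.9e-05; 1.41 under total-read scaling). Cdkn1a, which encodes the cell cycle inhibitor p21, was 10.92, 10.79 and 11.30 against 7.76 to 10.37 (1.71 ± 0.26, adjusted p = 1.4e-04), again without overlap. Gdf15 (1.66), Zmat3 (1.51), Gtse1 (1.03) and Eda2r (1.02) were the other genes called higher. Pmaip1, which encodes the death protein Noxa (-1.45), and Sesn1 (-1.21) were lower. Mdm2 itself was not called (0.00 ± 0.12, adjusted p = 1), at 9.94, 9.77 and 10.41 in the pancreas and 9.65 to 10.53 elsewhere, although total-read scaling put it at -0.93. Trp53, the p53 gene, differed by -0.04 ± 0.12 (adjusted p = 0.80).

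Many enriched genes were neighbours on a chromosome. Of the 228 enriched genes 60 (26.3%) had another enriched gene as the next tested gene, and of the 74 depleted genes 0 did. Enriched genes were 1.32% of all tested genes and depleted genes 0.428%. The longest run held 11 genes, the trypsinogen cluster on chromosome 6 from 40964754 to 41525079, with Try4, Try5, Try10, Prss3, Prss1 and Prss2. Runs of 4 held the Reg genes on chromosome 6 (78375874 to 78428667: Reg3d, Reg3a, Reg2 and Reg1) and the glandular kallikreins on chromosome 7 (44198191 to 44229618: Klk1b3, Klk1b4, Klk1b5 and Klk1). Among the runs of 3 were those of the lipases Pnlip, Pnliprp1 and Pnliprp2 on chromosome 19 and the amylases Amy2a5, Amy2a1 and Amy1 on chromosome 3. These are families of duplicated genes, and members of a run share sequence, so reads assigned to them are not independent.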

How the data were processed

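Total RNA of frozen tissue was sequenced on Illumina libraries, per the labels. The authors used STAR 2.6.0b, DESeq2 and genome GRCm38, per the submitters' processing notes; the counting tool, its strand setting and the annotation release are not given in the sources used here. The authors deposited 1 table of 18024 genes in 40 libraries, whose values are log2 after the variance-stabilising transformation, with a lowest value of 1.65. Inverting that transformation gave whole reads for 100% of Tg values (tolerance 0.01), so size factors, read totals and shares could be computed; no column was left unmapped. Only the 15 Tg libraries were used.

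Genes with a mean at least 1 above the lowest value in at least 1 tissue were tested with limma 3.58.1 (R 4.3.3; mean-variance trend, Benjamini-Hochberg over 17294 genes, 1 mean per tissue). The 3 libraries of each tissue limit precision. Because the same animals gave all tissues, a fit with the mouse as a block was an alternative (statmod 1.5.0); of 12 same-mouse pairs of pancreas with another tissue, correlations of deviations ran from -0.17 to 0.42 and 4 exceeded 0.1. That replicate block gave 4850 called genes against 4803, with 228 enriched and 78 depleted. Normalised reads are reads over the size factor; levels per kilobase used GENCODE M21 exon lengths (18003 genes matched). Python 3.11.15, numpy 2.4.6 and pandas 2.3.3 did the rest.

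The gene lists and the members compared were chosen with earlier results of these data known. Genes named by rule were the 15 most enriched and 15 most depleted, up to 4 called members per list, all acinar factors and islet hormones, genes at the threshold, Mdm2, Trp53 and the 5 most variable in the pancreas. Other list members named were picked after their values were seen. Some genes that the rule names are not reported here. Alternatives covered scaling, filters, pseudocounts, thresholds, voom, library weights and leaving out libraries; scaling outside the digestive genes, and the block without the ovary of mouse 1, were added after seeing the data.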

Additional observations from a re-analysis of the deposited data

How the results depend on the processing

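Scaling moved several counts. Total-read scaling gave 7910 genes called against the mean of the other tissues (6.49% of them higher, against 32.4%), 101 enriched, 156 depleted and 9494 called against the ovary. The share called higher was 50.2% with voom on the recovered reads (1887 higher and 1874 lower of 3761) and 46.9% with scaling by reads outside the digestive genes (1832 and 2073 of 3905). The depleted class held 132 genes with median-of-ratios scaling, 189 with that scaling and a pseudocount of 0.5, 172 without the ovary libraries and 22 with scaling by reads outside the digestive genes. A distance of 1 gave 566 enriched and 397 depleted genes, and a distance of 3 gave 115 and 3. Leaving out 1 library or mouse gave 3644 to 5315 called genes against the mean, 96 to 266 enriched, 38 to 171 depleted, 3050 to 6270 against the ovary, 4553 to 5750 against the kidney, 4815 to 6168 against the heart and 4318 to 5658 against the small intestine. The lowest and highest enriched counts came without mouse 2 and without mouse 1, with 104 without mouse 3. The depleted extremes came without the pancreas of mouse 3 and without that of mouse 1, with 45 without mouse 3. The replicate block moved no count by over 1.5 times (4850 called), and 2 of 184 named genes lost their call under it. Of the 184 genes named by rule, none that was called changed sign under the alternatives run, and 23 lost the call under total-read scaling, 31 under voom, 28 without mouse 3 and 2 without the ovary of mouse 1. Genes named outside the rule were not all run under them. Depth limits the depleted class, where most genes had few pancreas reads. The cause of these shifts was not tested.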

Other observations

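The genes in these paragraphs were chosen after their values were seen, and the adjusted p of each is from limma over all genes. No list stands behind them, and genes of the same kinds that were not enriched were not counted. Beside Tdh, enriched genes included Gcat (3.52 ± 0.60, SE), the enzyme after Tdh in threonine breakdown, the glycine transporter gene Slc6a9 (4.35 ± 0.38), Mat1a (4.38 ± 0.60), which makes S-adenosylmethionine, Ahcy (3.71 ± 0.47), which clears its product, and Gamt (3.48 ± 0.29). The adjusted p was 1.36e-06 for Gamt and 5.75e-05 for Mat1a. Ahcy had a mean log2 value of 13.99 ± 0.14 (SD, n = 3) in the pancreas and 9.06 to 10.99 in the other tissues. Gnmt was 2.24 above the kidney and passed as enriched without the ovary of mouse 1.

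Several genes of plasma proteins best known from the liver were among the enriched. F2, prothrombin, differed by 5.66 ± 0.82, Serpina10 by 5.80 ± 0.98, Serpina6, the corticosteroid carrier, by 5.20 ± 0.77, Vtn, vitronectin, by 4.77 ± 0.75, Itih4 by 4.69 ± 0.87 and the hepcidin gene Hamp2 by 5.22 ± 0.83. The hormone gene Fgf21 (4.13 ± 0.75) and the gene of its coreceptor, Klb (4.08 ± 0.66), were both enriched, while the receptor gene Fgfr1 was higher without being enriched (1.41 ± 0.17). The peptide hormone receptor genes Glp1r (4.88 ± 0.82) and Sstr2 (5.04 ± 0.70) and the neuropeptide gene Gal (5.16 ± 0.81) were enriched.

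Of 30 tested chemokine genes (Ccl and Cxcl) 4 were enriched, 14 were higher than the mean of the other tissues and 4 were lower. Nupr1, a stress-induced nuclear protein of the pancreas, was 13.97, 14.58 and 15.49 in the pancreas and 12.47 in the ovary of mouse 1, with all remaining libraries below (5.85 ± 0.65, adjusted p = 1.07e-05). The neutrophil chemokine genes Cxcl2 (4.32 ± 0.48) and Cxcl5 (4.21 ± 0.43), the acute-phase gene Saa3 (3.96 ± 0.59) and Il1b (2.88 ± 0.49) were enriched. Neutrophil markers were higher in 5 of 8 cases and took 0.00939% to 0.0219% of pancreas reads. Their part in these values was not tested.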
